A study of Mus musculus with 9 samples.

Results

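The miR-181 family in mouse marrow was followed here through its 4 mature members, miR-181a to miR-181d, each read by 1 bead probe. The family was picked with earlier results of these data known, its members were then taken by name from the probe descriptions of the normalized table, and they make up 4 of its 582 miRNA probes. A probe named for the mir-181a hairpin was left out of the family and is described separately.

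The animals were female C57Bl6/J mice aged 6 weeks. In the untreated group, 5 mice received no drug, and in the treated group 3 mice received 5-fluorouracil (5-FU) as a single intraperitoneal dose of 150 mg/kg, and marrow was collected on day 4. The drug, a pyrimidine analogue, is toxic to cells in cycle, so proliferating marrow cells are lost while resting stem cells are largely spared. Total RNA came from whole marrow after lysis of red cells, and every mouse gave its own sample. RNA was joined to adaptors and copied by PCR, the biotin-labelled products were bound to beads that each carry a probe, and bead fluorescence was read. The 9 arrays fell into 2 batches, with the untreated animals and 5-FU animal 1 in batch 1, and 5-FU animals 1, 2 and 3 in batch 2. The 2 arrays of 5-FU animal 1 were averaged and counted as 1 animal. Precision is limited by this small number of arrays.

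MicroRNAs guide Argonaute proteins to messenger RNAs, mainly by pairing of the seed, the bases near the 5′ end, and so lower the output of the targeted messages. In blood formation miR-181a is known for high levels in thymocytes and for a part in B-cell development, and in the thymus it raises the sensitivity of T cells to antigen by lowering several phosphatases. The family is also expressed in other tissues and in other blood cells.

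The mature sequences are shown because the probes of the family read near-identical targets and because all members carry the same seed. They are RefSeq sequences of build GRCm38.p6, written 5′ to 3′ with the seed, bases 2 to 8, in capitals.
miR-181a: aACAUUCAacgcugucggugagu
miR-181b: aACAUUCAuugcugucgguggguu
miR-181c: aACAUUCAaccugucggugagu
miR-181d: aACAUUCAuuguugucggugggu

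Of 1679 mature mouse names in the RefSeq table, 4 carry this seed, and these are the 4 members. With positions counted from 1 at the 5′ end, miR-181b departs from miR-181a by A9U, C10U and A21G and has an additional base at the 3′ end. miR-181d carries those same substitutions and C12U, so that over their first 23 bases miR-181b and miR-181d differ at 1 position. miR-181c lies 1 edit from miR-181a, a missing base, and is 22 bases long against 23. The sequences therefore form a pair of close relatives on each side, miR-181a with miR-181c and miR-181b with miR-181d. How much of one member's signal came from capture of its relative was not tested.

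The genes are arranged otherwise. Mir181a-1 (chr1:137966455-137966541, plus strand) and Mir181b-1 (chr1:137966639-137966718, plus strand) lie 97 bases apart. Mir181a-2 (chr2:38852735-38852810, plus strand) and Mir181b-2 (chr2:38853830-38853918, plus strand) lie 1019 bases apart, inside the bounds of the nuclear receptor gene Nr6a1 and of the long noncoding RNA gene Nr6a1os. Mir181c (chr8:84178873-84178961, minus strand) and Mir181d (chr8:84178716-84178787, minus strand) lie 85 bases apart. The RefSeq gene table holds no other gene whose bounds enclose the chromosome 1 or chromosome 8 loci. Mature miR-181a is identical from both of its loci, as is mature miR-181b, so the array cannot tell the chromosome 1 and chromosome 2 copies apart.

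Marrow identity was checked on miRNA markers. The blood-restricted miR-142-3p had a mean log2 signal of 12.61 and the myeloid miR-223 of 12.72 in untreated marrow. Of 7 listed probes for miRNAs of liver, brain, pancreas and epithelium 3 stood at the floor on every array. Not all miRNAs known from other tissues were low. In untreated marrow the epithelial miR-200c had a mean of 8.71 and the skeletal muscle miR-1 of 12.38. Normalized values have a floor at log2 3, and 379 probes above it in at least 3 of 8 animals were tested, including all 4 members. Summed raw fluorescence was 336483 to 679696 units per array. The summed normalized signal was 401283 to 402143 on batch 1 arrays and 355655 to 362039 on batch 2 arrays, so the treated group was scaled to a lower total on 3 of its 4 arrays.

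All members were lower in treated marrow. miR-181a was 1.90-fold lower (95% interval 1.69 to 2.12), miR-181b 3.49-fold (2.93 to 4.17), miR-181c 4.43-fold (2.95 to 6.67) and miR-181d 4.66-fold (2.63 to 8.26). Each fell past the threshold of a limma adjusted p of 0.05 over all tested probes, at which 25.1% of all tested probes fell and 15.6% rose, 40.6% in either direction. Of the 59 probes that rose, 33 stood at the floor in every untreated animal and so entered the test through the treated group. For each member all 3 treated animals lay below all 5 untreated ones, which held for 25.6% of tested probes. The median change over the members was -1.98 on the log2 scale, against -0.16 over the 379 tested probes and -0.32 over the 158 probes above log2 7 in at least 3 animals, of which 44.3% fell and 11.4% rose. A lower bulk signal can come from fewer cells that carry a miRNA or from less of it per cell, and these cannot be told apart here.

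**Figure D1:**
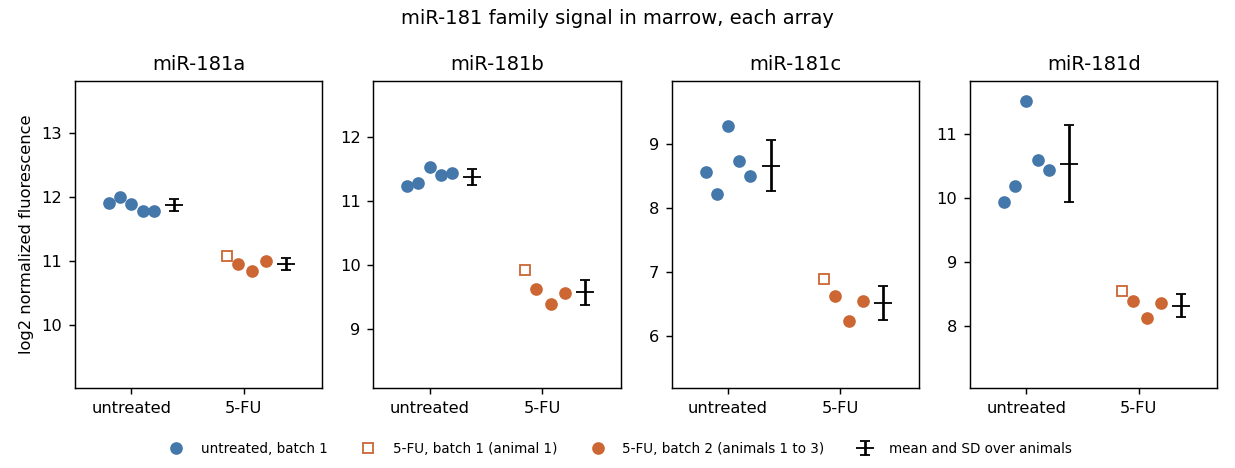
Each panel plots the log2 normalized fluorescence of 1 member on all 9 arrays, with blue points for untreated animals, an open square for the batch 1 array of 5-FU animal 1, orange points for batch 2 arrays, and bars for mean and SD over animals. All treated arrays lie below all untreated ones in every panel, and untreated animal 3 (the middle blue point) stands highest for miR-181c and miR-181d.

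miR-181a, the member best known in lymphocyte development, had log2 signals of 11.91, 12.01, 11.90, 11.79 and 11.79 in untreated animals 1 to 5. In 5-FU animals 1 to 3 they were 11.02, 10.85 and 11.00. Values were tight within both groups, and the gap between the lowest untreated and the highest treated animal, 0.77, was more than the range inside either group. The group means were 11.88 ± 0.094 (SD, n = 5) and 10.96 ± 0.095 (SD, n = 3). The change was -0.92, with an SE of 0.068 (limma adjusted p = 0.000279). Its untreated SD was below the median untreated SD of 0.29 over the 158 brighter probes. By size of change it was the 68th lowest of the 379 tested probes.

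miR-181b, made from the same primary transcripts as miR-181a, stood at 11.23, 11.27, 11.53, 11.40 and 11.43 in untreated animals 1 to 5. The treated values were 9.77, 9.38 and 9.55. Here too the groups lay well apart, with 1.46 between the nearest animals. The means were 11.37 ± 0.12 (SD, n = 5) and 9.57 ± 0.20 (SD, n = 3), and the change of -1.80 had an SE of 0.11 (limma adjusted p = 0.000279), the 20th lowest of all.

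miR-181c, from the chromosome 8 pair, gave 8.56, 8.22, 9.29, 8.73 and 8.51 in untreated animals 1 to 5. In the treated animals it gave 6.76, 6.23 and 6.55. Untreated animals spread over 1.07 log2 units, with animal 3 highest and animal 2 lowest, and the nearest animals of the 2 groups were 1.46 apart. The means were 8.66 ± 0.40 (SD, n = 5) and 6.51 ± 0.27 (SD, n = 3). The change of -2.15 had an SE of 0.25 (limma adjusted p = 0.00129).

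miR-181d, its neighbour on chromosome 8, gave 9.94, 10.19, 11.52, 10.60 and 10.44 in untreated animals 1 to 5, and 8.47, 8.12 and 8.36 in the treated animals. In the normalized values it was the most variable member among untreated animals, with an SD of 0.60, and animal 3 stood 0.92 above the next. The means were 10.54 and 8.32 ± 0.18 (SD, n = 3), and the change of -2.22 had an SE of 0.35 (limma adjusted p = 0.00382), the 13th lowest of all. Without untreated animal 3 the change was -1.98 (limma adjusted p = 0.000774). Unlike the other members, miR-181d lies in the second of 2 blocks of the raw table that each end with the same control beads, taken here as bead pools. The normalized signal of that pool summed to 53684 in untreated animal 3 and to 26518 to 32395 in the other untreated animals. Relative to raw intensity, the column of untreated animal 3 was shifted by -0.81 on the log2 scale in the first pool and by -0.13 in the second. With the deposited values brought to an equal total within each pool, miR-181d changed by -1.75 with a smaller SE of 0.15 (limma adjusted p = 0.000254). The spread of miR-181d in untreated animals thus depends on the scaling of the pools.

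In the treated group 5-FU animal 2 had the lowest value of every member. On the 2 arrays of 5-FU animal 1, every member was lower in batch 2 than in batch 1, by amounts much smaller than the group changes. The difference was -0.12, -0.30, -0.27 and -0.16 in the order a to d. Batch 1 alone holds both groups. Within it, the treated array of animal 1 against 5 untreated arrays gave changes of -0.80, -1.45, -1.77 and -1.99 in the order a to d. With a single treated array the error came from the untreated arrays alone, and the treated animal was assumed to vary like them. On that assumption the limma adjusted p was 0.0289, 0.0173, 0.115 and 0.223 in the same order, where 2.11% of tested probes were lower at 0.05. With a batch term fitted to the 9 arrays the changes are by construction those of batch 1, and the 2 arrays of animal 1 count separately in the error. In that fit 3 members passed, miR-181a (limma adjusted p = 0.00762), miR-181b (0.00370) and miR-181c (0.0314), while miR-181d did not (0.0714), beside 7.39% of tested probes that fell.

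The unnormalized fluorescence showed the direction before any scaling. For miR-181a it was 3364.5 to 6715 units on the 5 untreated arrays (median 4294) and 2029 to 3169 on the 4 treated arrays, without overlap, where the water wells read 23 and 24. For miR-181b it was 2057.5 to 5257.5 (median 3321) against 960 to 1768.5, also without overlap. For miR-181d it was 1006 to 3242 (median 1718) against 365 to 785.5, again without overlap. For miR-181c, the dimmest member, it was 252.5 to 1111 (median 455) against 122 to 314, and here the groups overlapped. The share of all probes without overlap in raw fluorescence was not counted, so these separations have no reference. Summed raw fluorescence also differed between arrays, as given above. The comparison crosses batches, as all untreated arrays were in batch 1 and 3 of the 4 treated arrays in batch 2. In 5-FU animal 1 the members read higher in batch 2, by 0.59 to 1.46 on the log2 scale after subtraction of the water wells. All 4 members lay above the water wells and the batch 2 buffer well on every array.

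Rescaled raw values kept the direction of all members and changed the sizes. With an equal total per array the changes were -0.86, -1.32, -1.24 and -1.58 in the order a to d, and all 4 passed (highest limma adjusted p = 0.00910), beside 9.09% of 330 probes that fell. With quantile normalization they were -0.84, -1.37, -1.09 and -1.58, and all 4 passed (highest limma adjusted p = 0.000882), beside 14.4% of 334. Scaled to the control beads they were -0.79, -1.24, -1.17 and -1.50, and miR-181b and miR-181d passed (limma adjusted p = 0.0379 for each) while miR-181a and miR-181c did not (0.0971 and 0.0995), beside 2.72% of 331. The drop in the size for miR-181c, from -2.15 to between -1.09 and -1.24, exceeded that of the other members.

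The batch 2 columns of the deposited table carry a term for each probe, shared by the 3 arrays, that the raw columns of the same name lack. What produced it is not given in the sources used. Over 132 probes it had an SD of 0.48 on the log2 scale. It stood at 0.27, -0.24, -0.74 and -0.080 in the order a to d. The raw batch difference of 5-FU animal 1, batch 2 minus batch 1 after subtraction of the water wells, was 0.59, 0.93, 1.46 and 1.13 in the same order. The members ran in opposite order in the term and in the raw batch difference, apart from miR-181d. Because the term is taken from deposited minus raw values, this order follows in part from its definition. Batch 1 columns carry no such term.

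The scale of the whole table also moved the values. For median centring, each array was centred on its median over the 222 probes above the floor on every array. Values at the floor stayed there. This moved the median change of all tested probes from -0.16 to 0.38. The counts went from 95 lower and 59 higher to 48 lower and 143 higher. In that setting miR-181a was at -0.28 (limma adjusted p = 0.269), miR-181b at -1.17, miR-181c at -1.51 and miR-181d at -1.58, and those latter 3 passed. An equal total of the deposited values gave 76 lower and 76 higher, with all 4 members still past the threshold (highest limma adjusted p = 0.00398). Relative to the median change of all tested probes in the deposited values, the members' changes were -0.76, -1.65, -1.99 and -2.06.

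**Figure D2:**
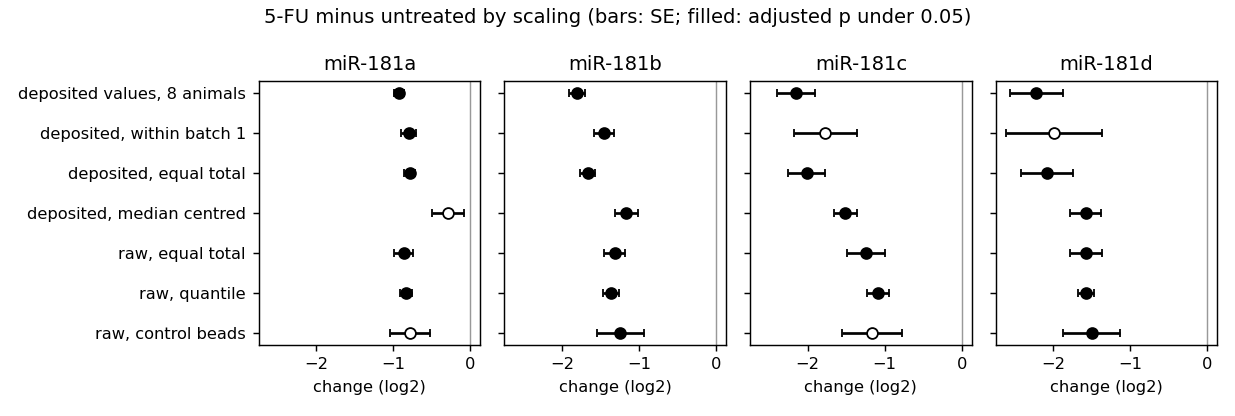
Each panel plots the change of 1 member, 5-FU minus untreated on the log2 scale, under 7 scalings, with SE bars and filled points for a limma adjusted p under 0.05. All values lie below 0, miR-181a is nearest to 0 at -0.28 after median centring, and miR-181c moves from -2.15 to -1.09 with quantile normalized raw values.

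The sizes of the fall were compared between members, and no pair passed after adjustment. Differences between members were taken within each animal, so that the brightness of a probe cancels when groups are compared. The scaling of an array cancels only between members of the same bead pool, and miR-181d lies in another pool than the rest. Relative to miR-181a, miR-181b averaged -0.51 ± 0.19 (SD, n = 5) in mice without the drug and -1.39 ± 0.12 (SD, n = 3) in mice given it, so the difference in change was -0.88. For miR-181c relative to miR-181a it was -1.23, and for miR-181d relative to miR-181a it was -1.30. With equal totals of the deposited values within each bead pool, that of miR-181d relative to miR-181a was -0.93. In each of these 3 pairs the groups did not overlap, and the exact permutation test over 56 splits gave the smallest two-sided p it can give, p = 0.0357. Over the 6 pairs compared, the Benjamini-Hochberg adjusted p was 0.0714 for each of the 3, which did not pass 0.05. As their p was already the smallest possible, no larger difference in these 3 pairs could have passed, given the other pairs. The lack of a pass therefore does not show that the members fell alike.

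The remaining pairs overlapped between groups. miR-181c and miR-181b differed in their change by -0.34 and miR-181d and miR-181b by -0.42 (exact permutation p = 0.107 for each, adjusted 0.129). With equal totals of the deposited values within each bead pool miR-181d and miR-181b differed by -0.05. miR-181d and miR-181c, neighbours on chromosome 8, differed by -0.07 (SE 0.19, exact permutation p = 0.643), from 1.88 ± 0.31 (SD, n = 5) to 1.80 ± 0.09 (SD, n = 3). Within batch 1 the difference in change relative to miR-181a was -0.65, -0.97 and -1.19 in the order b to d. In raw values with an equal total it was -0.46, -0.38 and -0.72, and with quantile normalization -0.53, -0.25 and -0.75. The batch 2 term differed from that of miR-181a by -0.51, -1.02 and -0.35. Its part in these differences was not tested beyond those values.

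**Figure D3:**
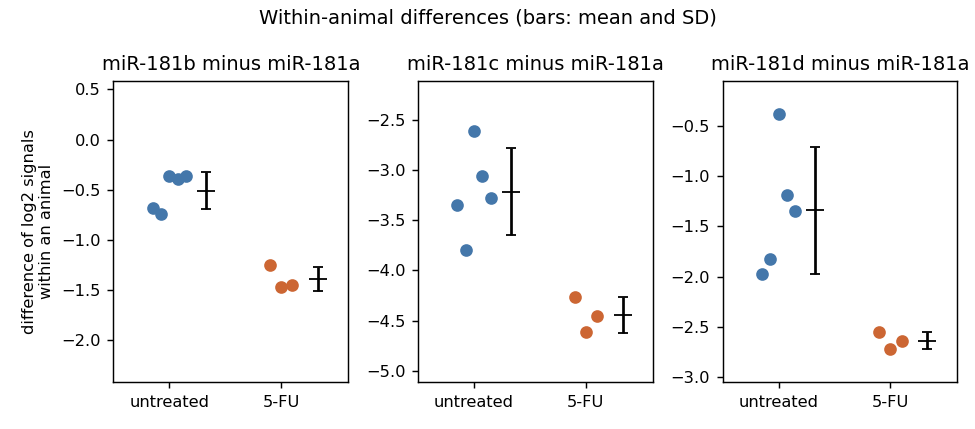
The panels plot the log2 signal of miR-181b, miR-181c and miR-181d minus that of miR-181a in each animal, with bars for mean and SD. In each panel the 3 treated animals lie below the 5 untreated ones, by mean differences of 0.88, 1.23 and 1.30.

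The authors' deposited table gives false discovery rates of 0.000347, 0.00111, 0.00077 and 0.00385 for the members in the order a to d. By its p-values these are the probes ranked 2, 13, 8 and 30 of 168. The p-values of the authors' deposited table were matched when all 9 arrays counted as separate samples, the pair from 5-FU animal 1 included.

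A probe named for the mir-181a hairpin, which has no mature arm in its name, gave log2 signals of 6.01, 5.12, 6.20, 6.37 and 6.63 in untreated animals 1 to 5. In treated animals it gave 4.25, 4.16 and 4.10, all below the untreated ones. Its change was -1.90 (SE 0.33, limma adjusted p = 0.00535). It did not pass once batch was in the model (limma adjusted p = 0.0710). It was dim, with raw readings of 46.5 to 147 units in untreated and 35 to 83 in treated marrow, where the batch 2 buffer well read 38. It is not a measure of mature miR-181a.

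Lists of other miRNAs, by cell type, are to be read against all tested probes, of which 25.1% fell and 15.6% rose. Of the brighter probes 44.3% fell and 11.4% rose. With batch as a term most calls in the lists were lost. In the lymphocyte list, without miR-181, 2 of 6 tested probes fell and 2 rose, with a median change of -0.05. miR-342-3p, a miRNA of lymphoid and myeloid cells, fell by 0.86 and by 1.04 within batch 1. It was at 0.16 when raw arrays were brought to equal totals. Raw values keep the batch difference of each probe. For miR-342-3p in 5-FU animal 1, batch 2 minus batch 1 was 2.09 in raw and 0.23 in deposited values. The part of this difference in the 0.16 was not tested. miR-342-5p was at -1.22 and did not pass (limma adjusted p = 0.110). miR-150, a marker of mature lymphocytes, fell by 0.39 (limma adjusted p = 0.0389) and stood at 0.04 within batch 1, at 0.25 after median centring and at 0.09 when raw arrays were brought to equal totals. miR-29b rose by 0.32 and miR-29c by 0.34, but once batch was in the model both missed the threshold (limma adjusted p = 0.244 and 0.0710). miR-29b stood at 0.0009 with quantile normalized raw values. The summed signal of the list was log2 13.90 to 14.05 in untreated and 13.99 to 14.07 in treated animals. That sum is weighted to the brightest probe, miR-29b.

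Among other cell types, 1 of 8 granulocyte and monocyte probes fell (miR-338-3p, by 1.79) and 0 rose, with a list median of -0.12. Of 6 erythroid probes 2 fell, miR-183 by 1.78 and miR-451, the red cell miRNA, by 0.70. miR-451 stood at -0.01 within batch 1, and the list median was -0.08. miR-183 was dim, with means of 5.37 in untreated and 3.59 in treated animals. miR-182 of the same list was at 0.98 and did not pass (limma adjusted p = 0.263). Of 11 stem and progenitor probes 5 fell and 3 rose, with a median of -0.32. miR-126-5p, whose host gene Egfl7 is active in endothelium and stem cells, rose by 1.61 and miR-196a rose by 1.41. miR-10b fell by 1.18 and was at 0.16 when raw arrays were brought to equal totals. It stood at -0.29 within batch 1, and its raw batch difference in 5-FU animal 1 was 1.14. Of the 5 that fell, miR-125a-5p and miR-130a stood above 0 after median centring, at 0.13 and 0.09. Within batch 1 these 2 were at -0.45 and -0.34. With batch as a term miR-125a-5p passed as lower (limma adjusted p = 0.0217) and miR-130a did not pass (0.546). In the list of the miR-17/92 clusters, which are active in dividing progenitors, 8 of 13 fell and 0 rose, and 4 fell with batch as a term. Its median was -0.80, and -0.48 within batch 1. The largest changes were those of miR-363 (-2.93) and miR-20b (-1.46). miR-20b was at -0.24 and miR-363 at -1.64 when raw arrays were brought to equal totals. The raw batch difference of 5-FU animal 1 was 1.28 for miR-20b and 2.18 for miR-363. Within batch 1 miR-20b stood at -0.70 and miR-363 at -2.995. With batch as a term miR-363 passed (limma adjusted p = 0.0406) and miR-20b did not (0.0710). The summed signal of that list was log2 15.81 to 16.01 in untreated and 15.46 to 15.66 in treated animals, without overlap. Batch 2 arrays were scaled to a lower summed signal, as given above, and the part of this in the separation was not tested. Neither pan-haematopoietic probe passed, with miR-142-3p at 0.34 and miR-142-5p at -0.15.

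Of the markers of tissue beside the marrow, 6 of 13 tested probes rose and 0 fell, where 15.6% of all tested probes rose. With batch as a term only miR-143 passed. All 3 skeletal muscle probes rose, miR-1 by 0.80, miR-133b by 1.16 and miR-206 by 1.04, and none of these passed with batch as a term (limma adjusted p = 0.247, 0.163 and 0.328). Their summed signal was log2 12.23 to 13.24 in untreated and 13.64 to 13.74 in treated animals, without overlap. Of 6 stromal and smooth muscle probes 2 rose, miR-143 by 1.11 and miR-145 by 1.06, of which miR-145 was lost with batch as a term (limma adjusted p = 0.300). Among 4 tested miRNAs of other tissues, miR-124 passed as higher, at the floor in every untreated animal and at a mean of 3.40 in treated ones, and did not pass with batch as a term (limma adjusted p = 0.267). The part of these shifts in the fall of miR-181 was not tested.

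**Figure D4:**
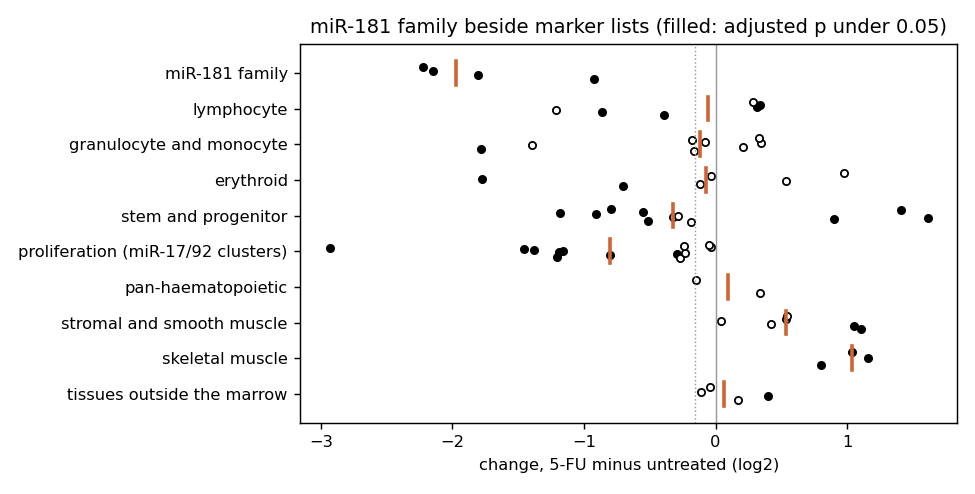
Each row plots the change of the tested probes of a list, 5-FU minus untreated on the log2 scale, with filled points for a limma adjusted p under 0.05, an orange bar at the median and a dotted line at the median of all tested probes. The miR-181 median of -1.98 lies left of the medians of all other lists, of which the lowest is -0.80 for the miR-17/92 clusters.

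Other miRNAs followed a similar course over the 8 animals. Each profile was centred on its own mean, and likeness was the root mean square distance from the mean profile of the 4 members. Among 206 other tested mature mouse probes the median distance was 0.83 log2 units, and the members themselves lay at 0.12 (miR-181b) to 0.47 (miR-181a). The nearest were miR-338-3p at 0.14, miR-130b at 0.19, miR-183 at 0.19, miR-192 at 0.20 and miR-423-3p at 0.21. miR-192 is a p53-responsive miRNA, and miR-130b is a relative of the progenitor miRNA miR-130a. miR-183, counted above in the erythroid list, belongs to a cluster also known from sensory organs. Their changes were -1.79 for miR-338-3p, -1.97 for miR-130b, -1.78 for miR-183, -1.60 for miR-192 and -1.79 for miR-423-3p. Within batch 1 miR-192 stood at -0.57 and the others at -1.18 to -2.37. When raw arrays were brought to equal totals miR-192 was at -0.28 and miR-183 at -0.50, and the other 3 at -1.09 to -1.30. The members were at -0.86 to -1.58 there. The raw batch difference of 5-FU animal 1 was 3.65 for miR-183 and 0.66 to 1.32 for the other nearest probes. None of the arms that RefSeq lists under these 5 names carries the miR-181 seed.

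**Figure D5:**
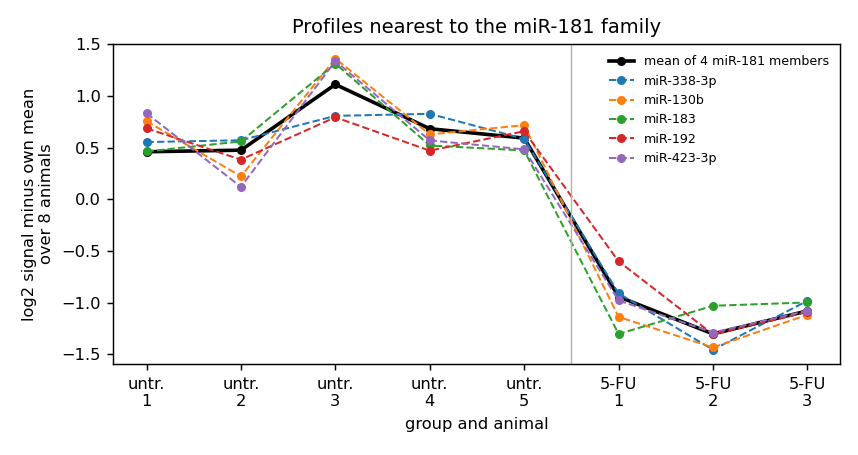
The plot shows the log2 signal of each miRNA minus its own mean over the 8 animals, by animal, for the mean of the 4 miR-181 members (solid) and the 5 nearest probes (dashed). All lines stand above 0 in every untreated animal and below 0 in every treated animal, and untreated animal 3 is highest in the solid line.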

How the data were processed

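Whole marrow of 5 untreated and 3 treated mice was profiled on 9 bead arrays. The deposited normalized values are log2 fluorescence, which the authors scaled assuming equal total miRNA signal, per the series design text. Raw bead intensity, not normalized, was deposited beside 3 background wells, per the file headers. The deposited p-values and false discovery rates are the authors'. The series value table repeats the normalized values. Upstream software is not given in the sources used.

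Control beads (12 rows) were left out. Groups were compared with limma 3.58.1 (R 4.3.3; lmFit, eBayes), two-sided, with Benjamini-Hochberg adjustment over 379 probes and a threshold of 0.05. For 5-FU animal 1 the mean log2 value of its 2 arrays was used. Intervals are limma's 95% intervals. Differences between members were tested by exact permutation over all 56 splits of the animals. The fit was tested on simulated data. In batch 1 the deposited columns equal log2 of raw intensity minus the higher water well plus a constant for each bead pool. All 5 untreated columns match the raw column of another untreated animal, so raw values are given by group only. The lists and members were chosen with earlier results of these data known. Text names the members, the 5 nearest probes and up to 4 members per list with the largest change. miR-142-3p, miR-223, miR-451, miR-150, miR-29b, miR-1, miR-124, miR-130a and miR-200c are named within or beside that rule as markers. Animals sharing a number correlated in their deviations from group means at 0.05, 0.35 and 0.17 over 379 probes, so the numbers were not taken as pairs. The alternatives were either array of 5-FU animal 1, batch, test, scaling, filter, leaving out each animal and a replicate block. Equal totals within bead pools, and the pair differences within batch 1, were chosen after seeing the data.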

Additional observations from a re-analysis of the deposited data

Results flagged for a closer look

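In miR-183, named above for its profile, untreated animal 3 stood far above the other 4 untreated animals, at a log2 value of 6.02. The test for a single distant value was run on 10 probes in 5 untreated animals, and chance alone gives such a value in about 1 in 20 groups. No miR-181 member met it.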

How the results depend on the processing

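All 4 members were lower in treated marrow under all 24 alternatives tried, and miR-181b had a limma adjusted p under 0.05 in all of them. Calls were lost by miR-181a after median centring (-0.28, limma adjusted p = 0.269) and scaling to control beads (-0.79), by miR-181c within batch 1 (-1.77), where the 1 treated array is assumed to vary like the untreated ones, and with control beads (-1.17), and by miR-181d within batch 1 or with a batch term (-1.99 in both) and with the replicate block over animals 1 to 3 (-2.23, limma adjusted p = 0.0686). Fewer arrays entered within batch 1 and under the block, but not in the other settings named here. The cause of the lost calls was not tested. Leaving out each animal gave -0.95 to -0.87, -1.91 to -1.71, -2.27 to -1.99 and -2.37 to -1.98 in the order a to d, with all calls kept. The change of miR-181c minus that of miR-181b turned to 0.076 for raw values at an equal total, overall or within bead pools, and with control beads, and to 0.28 with quantile normalization. That of miR-181d minus miR-181c turned to 0.30 with equal totals within bead pools and ranged from -0.20 to 0.016 when animals were left out, 0.016 being without untreated animal 3. With any animal left out the exact test of these differences cannot pass, as its smallest two-sided p is then 0.0571 without an untreated animal and 0.0952 without a treated one. Over all probes, 59 higher and 95 lower became 9 and 28 with batch as a term, 4 and 8 within batch 1, 143 and 48 after median centring, 11 and 41 with the replicate block, 27 and 30 for raw values at an equal total (31 and 31 within bead pools), and 10 and 9 with control beads. Lower calls were 48 with quantile normalization, and higher calls were 20 with the batch 1 array of 5-FU animal 1, 18 above log2 7 and 102 with equal totals within bead pools. Leaving out each animal gave 31 to 69 higher and 64 to 106 lower, with 31 higher without 5-FU animal 2 and without 5-FU animal 3.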
